A study of Mus musculus with 6 samples.

Results

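Upk3b-positive induced mesothelium-like cells are droplet barcodes of an embryonic stem cell culture that carried the mesothelial gene Upk3b. They were selected on their own UMI counts, in the Induced D6 library, as barcodes with at least 500 detected genes, at most 10% mitochondrial UMIs, at least 2 Upk3b UMIs and 0 UMIs of Foxl2, a granulosa cell transcription factor. A UMI is a unique molecular identifier, the tag by which one captured RNA molecule is counted once. The rule found 1218 of the 7519 Induced D6 barcodes that passed the gene and mitochondrial filters, or 16.2% (exact Clopper-Pearson 95% interval 15.4 to 17.1). The 6 libraries of the study held 28621 such barcodes in all. Because Upk3b chose the barcodes, its level in them is a description and supports nothing.

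Induced D6 cells came from embryonic stem cells labelled 129svj x C57BL/6J and were collected on culture day 6. They grew as aggregates in 3 steps of 2 days, first in CHIR, BMP4 and EGF, then in BMP4, retinoic acid, PD0325901, SHH and EGF, and last in BMP4 and FGF9. E11.5XX and E12.5XX are XX gonads of ICR mouse embryos, each named for its embryonic day, and the remaining libraries are XX gonads younger (E10.5XX) or later (E13.5XX and E14.5XX). All were dissociated in papain for 30 minutes, and each group was 1 library, so no comparison below has a replicate check, a p-value or a standard error. Intervals cover counting error only. Strain, culture, library and age cannot be told apart between Induced D6 and the gonads. The gonad libraries are named XX, whereas the name of Induced D6 gives no sex, so sex is not known to be alike.

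The mesothelium is the simple epithelium that lines the body cavities and covers the organs in them, and over the embryonic gonad it is called the coelomic epithelium. It expresses keratins together with mesodermal transcription factors such as Wt1, and it sheds cells that enter the gonad by an epithelial to mesenchymal transition. Its descendants in the XX gonad include pregranulosa cells, which later surround the oocytes. UPK3B belongs to the uroplakins, membrane proteins best known from the bladder lining, and it marks mesothelium in mouse embryos.

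The gene of the rule, Upk3b (ENSMUSG00000042985, protein coding), lies at chr5:136038496-136046487 on the plus strand of GRCm38 in GENCODE vM21. Krt19 (ENSMUSG00000020911) lies at chr11:100140810-100148665 on the minus strand, and Wt1 (ENSMUSG00000016458) at chr2:105126529-105173616 on the plus strand. The promoters of Upk3b and of 3 genes that stood highest beside it in Induced D6 are printed because these genes were high in the same barcodes. Each window runs from 250 bases before to 50 bases after the gene's start, read on the gene's strand, from RefSeq on GRCm38.p6. RefSeq's table matched all 11 symbols looked up, which are Upk3b and the 10 genes highest within Induced D6. The windows are chr5:136038246-136038545 (plus) for Upk3b, chr2:132880813-132881112 (minus) for Lrrn4, chr11:70505024-70505323 (plus) for Tm4sf5 and chr15:101412153-101412452 (plus) for Krt7. Capitals mark GGAATG, the core that TEAD factors bind, and GATAAG, a core that GATA factors bind, on either strand.
Upk3b: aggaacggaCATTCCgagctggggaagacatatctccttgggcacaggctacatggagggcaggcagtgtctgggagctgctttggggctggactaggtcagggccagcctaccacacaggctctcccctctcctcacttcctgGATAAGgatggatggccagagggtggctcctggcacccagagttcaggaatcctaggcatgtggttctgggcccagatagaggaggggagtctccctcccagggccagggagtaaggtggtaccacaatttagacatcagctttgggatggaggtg
Lrrn4: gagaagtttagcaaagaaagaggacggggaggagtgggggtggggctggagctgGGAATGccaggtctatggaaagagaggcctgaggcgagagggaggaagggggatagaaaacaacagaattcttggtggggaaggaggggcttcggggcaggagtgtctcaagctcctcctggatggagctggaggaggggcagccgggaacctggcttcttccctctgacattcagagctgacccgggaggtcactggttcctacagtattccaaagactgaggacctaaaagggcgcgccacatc
Tm4sf5: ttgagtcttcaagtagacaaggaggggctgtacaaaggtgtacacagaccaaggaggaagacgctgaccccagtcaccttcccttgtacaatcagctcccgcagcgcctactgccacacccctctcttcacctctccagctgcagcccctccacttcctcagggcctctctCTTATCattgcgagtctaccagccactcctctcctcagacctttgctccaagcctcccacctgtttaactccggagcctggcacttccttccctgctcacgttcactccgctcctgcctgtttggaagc
Krt7: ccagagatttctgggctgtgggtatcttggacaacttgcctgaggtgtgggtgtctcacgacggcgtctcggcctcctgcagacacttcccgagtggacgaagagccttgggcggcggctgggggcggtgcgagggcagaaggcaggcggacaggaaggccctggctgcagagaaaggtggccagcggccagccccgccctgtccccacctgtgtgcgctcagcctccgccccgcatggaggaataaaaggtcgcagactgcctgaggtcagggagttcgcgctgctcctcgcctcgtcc
The Upk3b window held 1 GGAATG match on the opposite strand, 241 bases before the start, and 1 GATAAG match on the gene's strand, 106 bases before it. Lrrn4 held 1 GGAATG match 196 bases before its start, and Tm4sf5 held 1 GATAAG match on the opposite strand, 79 bases before. No match overlapped another, and neither string was found in the Krt7 window. Of 32817 promoter windows in the table, 14.7% held GGAATG and 7.45% held GATAAG. A match is a description of letters and not a binding site.

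Among the 1218 members, 330 carried 2 Upk3b UMIs, 450 carried 3 or 4 and 438 carried 5 or more, with a median of 4 and a highest value of 22. Just outside the threshold, 562 barcodes held 1 Upk3b UMI, and 5726 held none. The rule left out 8 of 1226 barcodes with 2 or more Upk3b UMIs because they also held Foxl2, or 0.653%, against 5.22% of the 0-Upk3b barcodes with a Foxl2 UMI. The same rule chose 381 of 2720 E11.5XX barcodes (14.01%, interval 12.7 to 15.4) and 284 of 3249 E12.5XX barcodes (8.74%, interval 7.79 to 9.77). It also chose 2.57% of E10.5XX, 6.42% of E13.5XX and 6.38% of E14.5XX barcodes.

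Depth differed between the classes. Members had a median of 7650 UMIs and 2740 genes per barcode in Induced D6, against 5970 UMIs and 2353 genes in its 0-Upk3b barcodes, and 16171 UMIs in E11.5XX and 14379 in E12.5XX members. At these depths 2 UMIs are 261 CPM (UMIs scaled to a total of 1000000) in Induced D6 but 124 CPM in E11.5XX and 139 CPM in E12.5XX, so the rule asked for a higher level in the culture. With every barcode thinned to 3000 UMIs before the rule, it chose 7.56% of Induced D6, 2.69% of E11.5XX and 1.63% of E12.5XX barcodes. Median mitochondrial shares were 3.64% in members and 3.78% in 0-Upk3b barcodes of Induced D6. Induced D6 shared 30 barcode sequences with E11.5XX and 35 with E12.5XX, and pairs of libraries shared between 17 and 114. The highest-scored Scrublet barcodes, up to the expected doublet rate, held 8.62% of Induced D6 members and 5.31% of its 0-Upk3b barcodes, and doublets were kept in all values unless stated.

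**Figure D1:**
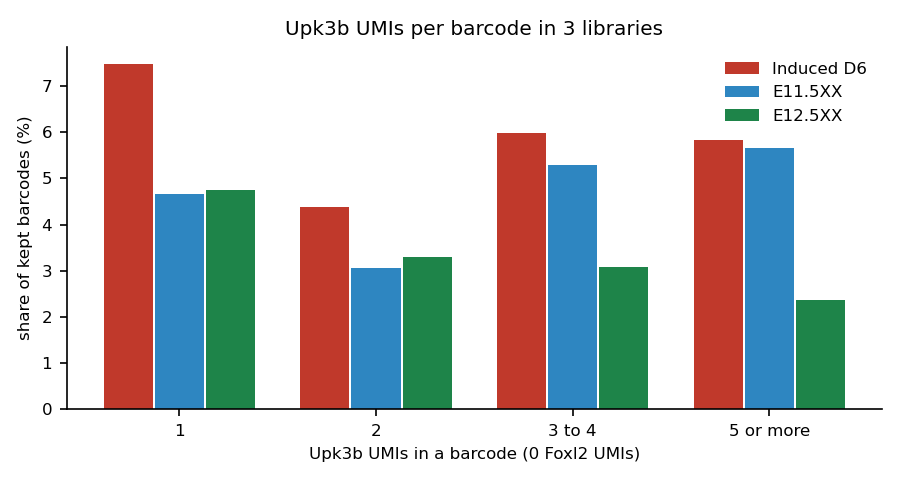
Share of kept barcodes (%, vertical axis) by the number of Upk3b UMIs they held (horizontal axis), for barcodes without Foxl2 UMIs in Induced D6, E11.5XX and E12.5XX, in bars from left to right. Induced D6 had 330 barcodes with 2, 450 with 3 to 4 and 438 with 5 or more Upk3b UMIs, and 562 with 1 lay just outside the rule.

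Levels below are CPM of UMIs summed over all barcodes of a class. A gene was compared when either class reached 50 CPM. Within Induced D6, members were set against 0-Upk3b barcodes over 3379 such genes, with Upk3b and Foxl2 left out. In members 8 genes were at least 4-fold higher (0.237% of genes compared) and 29 at least 4-fold lower (0.858%). At 2-fold the counts were 64 higher (1.89%) and 117 lower (3.46%), and the median log2 ratio over all genes was 0.01. Against 1218 0-Upk3b barcodes drawn to the members' depth, with a median of 7648.5 UMIs, 1 gene (Tm4sf5) was at least 4-fold higher and 25 were lower. The 0-Upk3b barcodes were not filtered on Foxl2. Against those of them with 0 Foxl2 UMIs, 7 of 3374 genes were at least 4-fold higher in members and 31 lower.

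Lrrn4, Krt7 and Tm4sf5 had the largest ratios in members. Lrrn4, a leucine-rich repeat membrane protein known as a mesothelial gene, stood at 64.3 CPM in members and 10.99 CPM in 0-Upk3b barcodes, a 5.85-fold difference (exact interval 5.16 to 6.65). Krt7, a simple-epithelium keratin, was 5.50-fold higher (4.95 to 6.12), at 88.5 against 16.1 CPM. Tm4sf5, a tetraspan membrane protein, was 5.41-fold higher, at 255 against 47.1 CPM. These 3 are the genes whose promoters stand above beside that of Upk3b. Myl7, a myosin light chain known from the atrium, reached 149 against 28.8 CPM, and Bnc1, a zinc finger factor of mesothelium and keratinocytes, 64.2 against 15.2 CPM. The others past 4-fold were Tmem151a (147 against 30.1 CPM), Tmem108 (158 against 35.6 CPM) and Arhgap22 (141 against 34.8 CPM). Ezr, which ties membrane to actin in microvilli, and Dkk1, a secreted Wnt inhibitor, followed at 3.75-fold each. Against depth-matched 0-Upk3b barcodes Krt7 had a log2 ratio of 1.73, in place of 2.46, and the other 6 genes beside Tm4sf5 also came under 4-fold, at log2 ratios between 1.67 (Arhgap22) and 1.99 (Lrrn4).

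Of 25 mesothelium genes, 11 reached the floor in Induced D6, 8 of them at least 2-fold higher in members and 0 lower, with a median log2 ratio of 1.82. This list includes Krt19 and Wt1, which name the cells. Krt19, another simple-epithelium keratin, averaged 646 CPM in members and 174 CPM in 0-Upk3b barcodes, 3.70-fold higher (3.58 to 3.83). Thinned to 3000 UMIs, 60.8% of members held a Krt19 UMI, against 16.0% of 0-Upk3b barcodes. Aldh1a2, which makes retinoic acid, stood at 214 against 60.5 CPM, Podxl, a sialomucin of apical membranes, at 209.8 against 99.5 CPM, and Ezr at 174 against 46.4 CPM. Krt18 stood at 116 against 51.9 CPM.

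Wt1 did not separate the classes. It stood at 756 CPM in members and 743 CPM in 0-Upk3b barcodes, a ratio of 1.02 (0.992 to 1.04), and 89.2% of thinned members and 85.3% of thinned 0-Upk3b barcodes held a Wt1 UMI. Rspo1 (108 against 118 CPM) and Igfbp5 (1074 against 969 CPM) had log2 ratios of -0.13 and 0.15. Below the floor, the mucin Muc16 had 14.95 against 2.15 CPM, the polarity gene Crb2 29.3 against 7.15 CPM, and the membrane glycoprotein gene Gpm6a 24.4 against 4.86 CPM. Mesothelin, Msln, a marker of adult mesothelium, had 3 UMIs in all members together, 0.299 CPM. Cdh1, the E-cadherin of most epithelia, had 4 UMIs.

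Among uroplakins, Upk1b was found beside Upk3b. Upk1b (ENSMUSG00000049436, chr16:38773184-38800328, minus strand) encodes a tetraspanin that pairs with UPK3 proteins in the bladder lining. It had 47.2 CPM in members and 7.89 CPM in 0-Upk3b barcodes, 5.97-fold higher (5.15 to 6.94), but lay under the floor. In E11.5XX and E12.5XX members it had 1.69 and 3.25 CPM. Upk2, Upk3a and Upk3bl had 0 UMIs in Induced D6 members, and Upk1a had 7. Also below the floor, Krt15 had 31.3 against 7.43 CPM and Krt14 14.95 against 2.73 CPM, while Krt5, their usual partner in skin, had 0 UMIs in both classes.

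**Figure D2:**
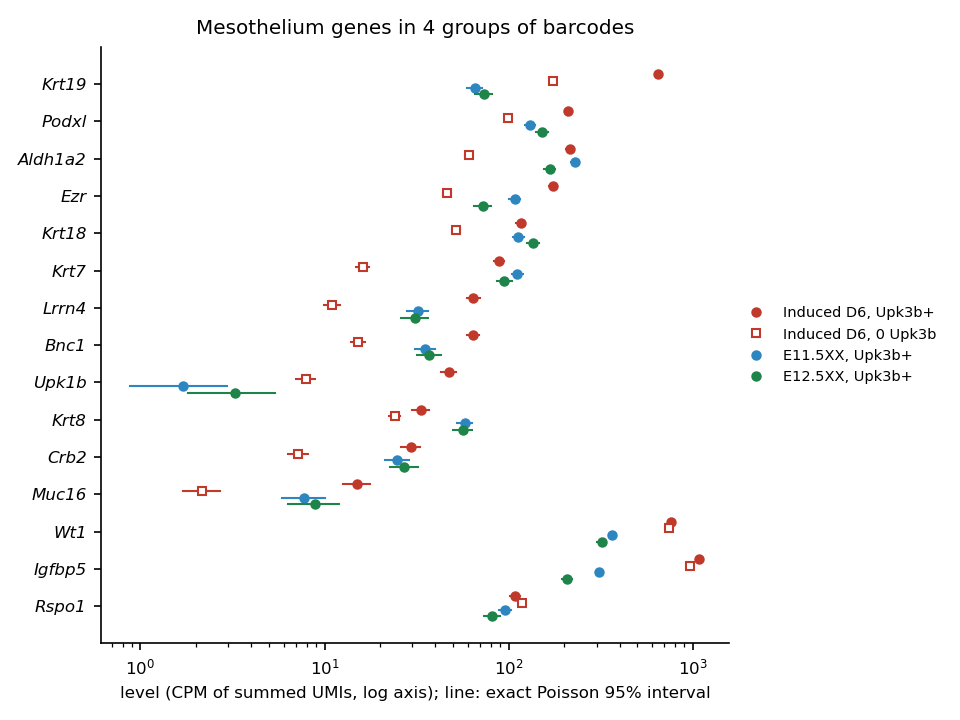
Levels of 15 mesothelium genes (CPM of summed UMIs, log axis) in Induced D6 members, Induced D6 0-Upk3b barcodes (open squares), E11.5XX members and E12.5XX members, drawn downwards in that order, with exact Poisson 95% intervals. Krt19 stood at 646 CPM in Induced D6 members, above 174 CPM in 0-Upk3b barcodes and 65.3 and 73.1 CPM in gonad members, whereas Wt1 was 756 and 743 CPM in both Induced D6 classes.

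Several mesenchymal genes were lower in members. Of 6 genes of epithelial to mesenchymal transition and mesenchyme at the floor, 3 were at least 2-fold lower and 0 higher (median log2 ratio -1.13). Vim, the intermediate filament of mesenchymal cells, stood at 194 CPM in members and 547 CPM in 0-Upk3b barcodes. Zeb1, a repressor of epithelial genes, stood at 22.2 against 85.7 CPM, and its relative Zeb2 at 32.5 against 81.0 CPM. Cdh11 (103 against 70.9 CPM) and Fn1 (89.0 against 48.5 CPM) went the other way, both by under 2-fold.

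Some stroma and matrix genes were lower in members. Of 14 stroma genes at the floor 4 were at least 2-fold lower and 0 higher, and of 12 interstitial matrix genes 6 were lower and 0 higher. Lum, a collagen-binding proteoglycan, had 3.29 CPM in members and 82.6 CPM in 0-Upk3b barcodes, 25.1-fold lower (17.8 to 36.5). Col1a1 had 44.5 against 179.6 CPM, Mfap4 41.9 against 169 CPM and Mgp 70.4 against 221 CPM. Dlk1, an imprinted Notch-like membrane protein also kept in the stroma list, was higher in members, at 1314 against 762 CPM, and so by under 2-fold was Tcf21. The log2 ratio of Lum was -4.65, against -3.36 with barcodes of 1 Upk3b UMI taken in, -3.93 with depth-matched 0-Upk3b barcodes and -5.29 without the highest Scrublet scores. In the basement membrane list 1 of 3 genes passed 2-fold, Col18a1, at 70.4 against 31.9 CPM.

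The other genes lowest in members came from several roles. Pf4, a platelet chemokine, had 3.69 against 116 CPM, 31.3-fold lower, and 1 of the 62 barcodes of the Pf4-led cluster was a member. Akr1cl, an aldo-keto reductase, had 13.6 against 232 CPM and Sparcl1, a matrix glycoprotein, 17.2 against 201 CPM. Osr1, a transcription factor of intermediate mesoderm, had 5.68 against 67.4 CPM. The cell cycle inhibitor Cdkn1a had 12.46 against 118 CPM and the Wnt ligand Wnt6 13.2 against 131 CPM. Rgcc and Olfml3 were 11.4-fold and 9.99-fold lower. The sizes moved with the barcodes taken. Pf4 had a log2 ratio of -4.97, but -2.89 against 0-Upk3b barcodes with a Wt1 UMI, -4.12 with barcodes weighted equally and -6.58 against depth-matched ones. With barcodes of 1 Upk3b UMI taken in, Akr1cl, Sparcl1, Osr1, Wnt6, Rgcc and Olfml3 had log2 ratios between -3.14 (Akr1cl) and -2.61 (Wnt6). Without the highest Scrublet scores these genes and Cdkn1a lay between -5.84 (Akr1cl) and -4.14 (Cdkn1a). Osr1 had -2.90 against depth-matched barcodes.

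Gonadal transcription factors divided. Of 11 at the floor, 1 (Lhx9) was at least 2-fold higher in members and 1 (Osr1) lower, with a median log2 ratio of 0.02. Lhx9, a LIM homeobox factor needed for the gonad to form, had 111 CPM in members and 49.2 CPM in 0-Upk3b barcodes. Emx2 (183 against 123 CPM), Gata4 (148 against 121 CPM), Gata6 (448 against 329 CPM) and Tcf21 (215 against 139.6 CPM) were higher by under 2-fold. Nr5a1, the regulator of steroidogenic genes, was lower, at 40.8 against 67.8 CPM, and its partner Nr0b1 had 30.5 against 55.6 CPM. Hoxd9 was the single posterior Hox gene at the floor and had 82.5 against 24.9 CPM.

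Pregranulosa genes were lower or alike. Of 7 at the floor, 3 were at least 2-fold lower in members and 0 higher, with a median log2 ratio of -0.97. Those were Wnt6, Pax8 (10.2 against 66.3 CPM) and Kitl, the KIT ligand (29.0 against 66.6 CPM). Wnt4, which drives ovarian development, had 212 against 416 CPM, just under 2-fold. Fst, an activin-binding protein, had 6 UMIs in members, 0.598 CPM, against 27.8 CPM in 0-Upk3b barcodes, both below the floor. By the rule members held no Foxl2 UMI, whereas 5.22% of the 0-Upk3b barcodes held one. The rule itself thus favours lower pregranulosa genes in members, and its part in these differences was not tested.

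In signalling lists the members' differences were mostly under 2-fold. Id1, Id2, Id3 and Id4, targets of BMP signalling, had log2 ratios between 0.41 and 0.94, and Tgfbi, a TGF-beta target, was the 1 gene of that list past 2-fold, at 133 against 581 CPM. Of 5 Wnt targets, Dkk1 was higher and Sfrp1 lower (106 against 238 CPM). Of 3 retinoic acid genes 1, Aldh1a2, was higher. Of 11 genes of the immediate early and heat shock list, 5 were lower, among them Fos (219.7 against 722 CPM) and Junb (52.3 against 275 CPM). Fos and Junb encode transcription factors that cells switch on quickly after a stimulus. Cell cycle genes had a median log2 ratio of 0.54 over 13 S phase genes and 0.76 over 11 G2/M genes, of which 1 gene in each list passed 2-fold, Rrm2 and Cenpf. Members were deeper, at a median of 7650 against 5970 UMIs, and these list medians were not taken against depth-matched barcodes.

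Genes differed in how they changed across the threshold. Krt19 had 631, 635 and 667 CPM in barcodes with 2, 3 to 4 and 5 or more Upk3b UMIs, 593 CPM in those with 1, and 174 CPM in those with 0. Upk1b had 34.8, 41.3 and 61.7 CPM in the same 3 member classes, 29.7 CPM with 1 UMI and 7.89 CPM with 0. Lum had 4.91, 2.19 and 3.22 CPM in the member classes, 19.7 CPM with 1 UMI and 82.6 CPM with 0. Wt1 stayed between 731 and 770 CPM in every class. Barcodes with 1 Upk3b UMI stood nearer to members than to 0-Upk3b barcodes for Krt19, and between them for Lum.

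Members lay mainly in 4 of 12 clusters of the Induced D6 library, which were drawn without Upk3b and Foxl2. Cluster 6, led by Hoxd9, Tm4sf5 and Myl7, held 379 members among 700 barcodes (54.1%, interval 50.4 to 57.9). Cluster 11, led by the mitotic genes Cenpf, Ube2c and Top2a, held 256 of 540 (47.4%), and cluster 7, led by Krt19, Crct1 and Arhgap22, held 425 of 976 (43.5%). Cluster 0, also of mitotic genes, held 67 of 192. None of the other 8 clusters held over 3.95% members. Cluster 8, led by the stroma genes Lum and Dcn, held 0 members of 915 (0%, interval 0 to 0.402). In cluster 6 70.1% of barcodes held at least 1 Upk3b UMI at a median of 7212.5 UMIs, against 8.06% in cluster 9, led by the platelet genes Pf4 and Ppbp, at a median of 3659 UMIs. The 8 clusters with few members ranged between 1.86% in cluster 8 and that value. Of the 12 clusters, the mitotic cluster 11 was the deepest, at a median of 9307.5 UMIs. Deeper barcodes reach 2 Upk3b UMIs more easily.

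Members of clusters 7 and 6 differed from each other in level. Members in cluster 7 had 1218 CPM of Krt19, against 412 CPM in cluster 6, and members in the mitotic cluster 11 had 414 CPM. Lhx9 had 69.3 CPM in cluster 7 members and 158 CPM in cluster 6 members, and Nr5a1 23.7 and 62.5 CPM. Wnt4 was the reverse, with 295 CPM in cluster 7 and 112 CPM in cluster 6. Upk3b itself had 589 and 603 CPM there. Upk3b was left out of the clustering. The other genes were open to it, so the differences describe the clusters and test nothing. Without the mitotic clusters 0, 10 and 11, 13 genes were at least 4-fold higher in members than in 0-Upk3b barcodes, Krt19 among them.

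**Figure D3:**
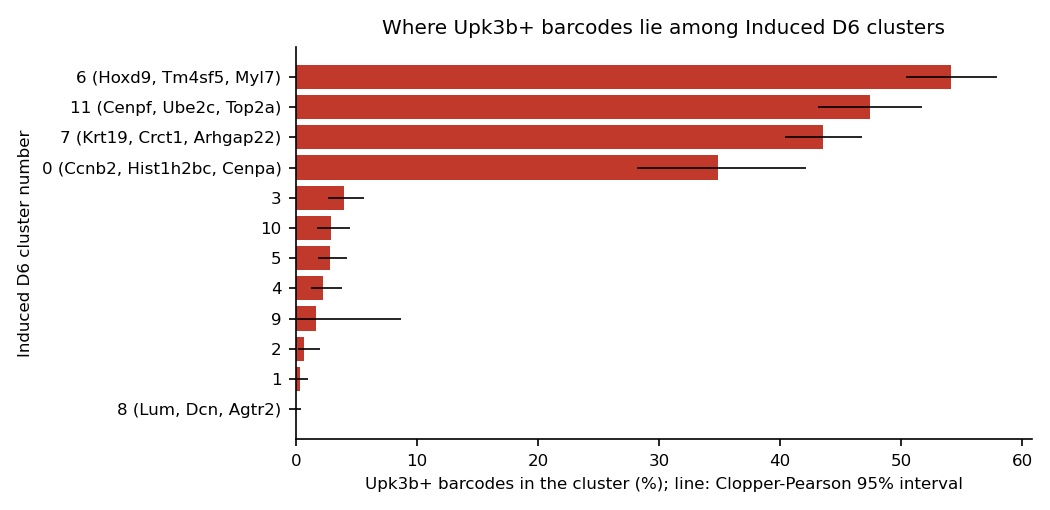
Share of barcodes that were Upk3b-positive members (%, horizontal axis) in each of 12 Induced D6 clusters, named by number, with 3 leading genes for clusters 6, 11, 7, 0 and 8, and with Clopper-Pearson 95% intervals. Clusters 6, 11, 7 and 0 held 54.1%, 47.4%, 43.5% and 34.9%, and cluster 8 held none.

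The same contrast was drawn inside each gonad. In E11.5XX, members against 0-Upk3b barcodes differed by at least 4-fold higher for 13 of 3098 genes (0.42%) and lower for 39 (1.26%). In E12.5XX, 17 of 2868 genes were higher (0.593%) and 41 lower (1.43%). The 0-Upk3b barcodes of the gonads included blood and germ cells, whose list sums were 27324 CPM of erythroid and 1229 CPM of germ cell genes in E11.5XX. Against 0-Upk3b barcodes with a Wt1 UMI, 7 genes were at least 4-fold higher in members of Induced D6 (0.207%), 7 in E11.5XX (0.224%) and 10 in E12.5XX (0.35%).

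The genes high in members overlapped between culture and gonad. At 2-fold, 2.26% of genes were higher and 3.58% lower in members within E11.5XX, and 3.49% and 3.59% within E12.5XX. Of the genes compared in both libraries, 36 were at least 2-fold higher in Induced D6 members and 60 in E11.5XX members, and 24 were shared, 66.7% of the first and 40.0% of the second list. With E12.5XX, 25 were shared, 71.4% of 35 and 30.9% of 81. The shared genes included Krt7, Krt18, Krt19, Tm4sf5, Myl7, Aldh1a2, Ezr, Hoxd9, Lhx9 and Tmem108 in both. Among lower genes, 31 were shared with E11.5XX (51.7% of 60, 59.6% of 52) and 23 with E12.5XX (46.9% of 49, 50% of 46), Akr1cl, Sparcl1, Cdkn1a and Wnt6 among them. Against 0-Upk3b barcodes with a Wt1 UMI, 22 higher genes were shared with E11.5XX (62.9% of 35, 46.8% of 47). With E12.5XX 23 were shared (67.6% of 34, 34.8% of 66). Lhx9 was then shared with neither gonad, while the other higher genes named here were shared with both. Shared lower genes were then 46 with E11.5XX (68.7% of 67, 53.5% of 86) and 43 with E12.5XX (70.5% of 61, 46.7% of 92).

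Some genes differed in size or direction between the libraries. Tm4sf5 had a log2 ratio of 2.44 in Induced D6, against 3.82 in E11.5XX, where it stood at 220.4 CPM in members and 15.6 CPM in 0-Upk3b barcodes. With barcodes thinned before the rule it was 2.78 in E11.5XX, from 72 members in place of 381. The Induced D6 value of 2.44 is without thinning, so those 2 values are not alike in setting. Krt19 had a log2 ratio of 1.89 in Induced D6, against 3.08 in E11.5XX and 2.86 in E12.5XX. Of barcodes in Induced D6 clusters 6, 7 and 11, 70.1%, 59.1% and 66.3% held an Upk3b UMI. The rest of these clusters fell in the 0-Upk3b class, and cluster 7 had 1261 CPM of Krt19 over all its barcodes. How far this, or the shallower depth of Induced D6, shaped the ratios was not tested. Col1a1 had -2.01 in Induced D6 but 0.32 in E11.5XX, and Dcn, another matrix proteoglycan, -0.96 but 0.75 in E11.5XX and 2.17 in E12.5XX. Zeb1 and Vim were lower in members of all 3 libraries. None of these differences between libraries was tested.

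**Figure D4:**
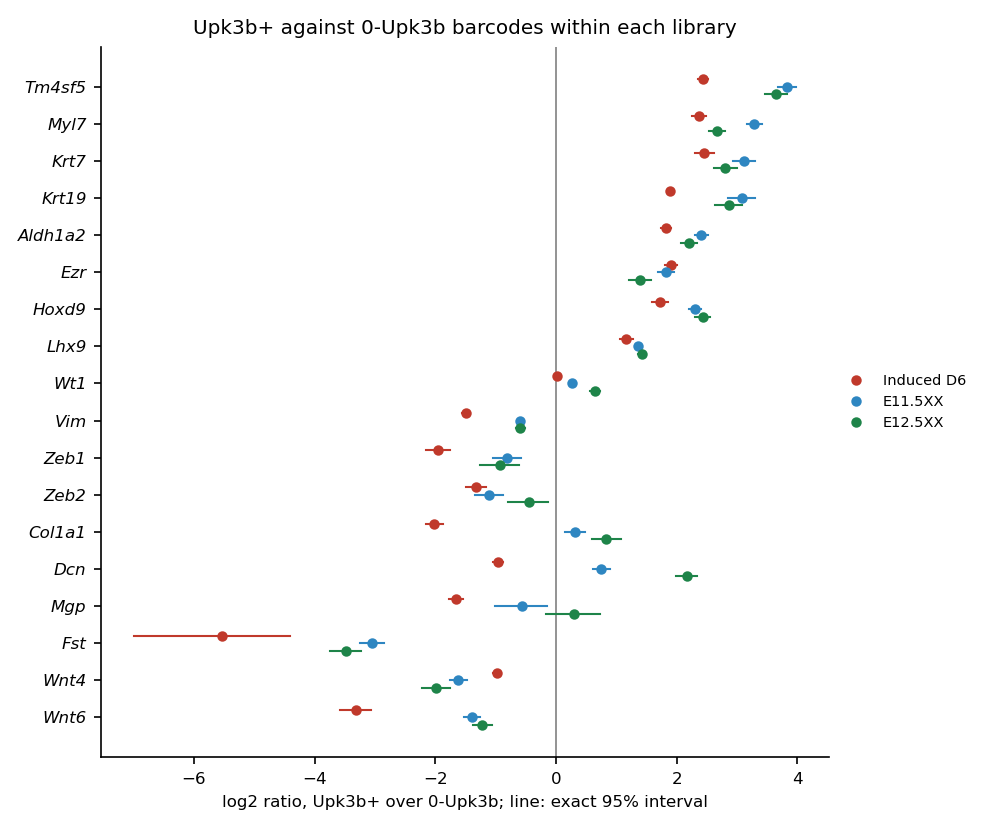
Log2 ratio of members over 0-Upk3b barcodes (horizontal axis) for 18 genes in Induced D6, E11.5XX and E12.5XX, from top to bottom within each gene, with exact 95% intervals. Tm4sf5, Krt7 and Krt19 lay to the right of 0 in all 3 libraries, whereas Col1a1 and Dcn were at -2.01 and -0.96 in Induced D6 and above 0 in both gonads.

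Over genes, log2 levels of Induced D6 members correlated with those of E11.5XX members at r = 0.937 over 8417 genes, and 0-Upk3b Induced D6 barcodes correlated with the same gonad members at r = 0.902 over 8736 genes. With E12.5XX members the values were 0.927 and 0.891. These are descriptions across genes, which are not independent, and the points share library and depth.

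Induced D6 members were then set against gonad members. Over 3319 genes, 62 were at least 4-fold higher in Induced D6 than in E11.5XX members (1.87%) and 20 lower (0.603%), and the median log2 ratio was 0.07. Over 3263 genes, 78 were higher than in E12.5XX members (2.39%) and 21 lower (0.644%). There the median log2 ratio was 0.22, and measured from it 61 were higher and 24 lower. At 2-fold 220 were higher (6.63%) and 86 lower (2.59%) against E11.5XX, and 354 (10.8%) and 97 (2.97%) against E12.5XX. The mitotic clusters 0, 10 and 11 were also left out, of Induced D6 only, while gonad members kept all their barcodes. On that unequal footing 72 genes were at least 4-fold lower than in E11.5XX members and 70 than in E12.5XX members. Both comparisons use the same Induced D6 members.

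Some mesothelium genes were higher in Induced D6 members than in gonad members. Of 12 at the floor, 4 were at least 2-fold higher in Induced D6 than in E11.5XX members and 5 than in E12.5XX members, and 0 were lower in either, with medians of 0.69 and 0.63. Krt19 was 9.90-fold higher than in E11.5XX (9.004 to 10.9) and 8.83-fold higher than in E12.5XX (7.92 to 9.88). Thinned to 3000 UMIs, 60.8% of Induced D6 members held Krt19, against 15% of E11.5XX and 17.3% of E12.5XX members. Without cluster 7 the Krt19 level was 397 CPM, and the ratios to E11.5XX and E12.5XX members 6.08 and 5.43. With barcodes thinned before the rule they were 8.55 and 5.16. Wt1 was 2.09-fold and 2.37-fold higher, at 362 and 319 CPM in the gonad members. Krt7 (88.5 against 111 and 94.8 CPM) and Krt18 (116 against 113 and 136 CPM) were close to the gonad levels.

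Lhx9 was lower. It had 111 CPM in Induced D6 members, against 636 CPM in E11.5XX and 533 CPM in E12.5XX members, 5.75-fold (5.38 to 6.15) and 4.82-fold (4.49 to 5.18) lower. Thinned, 25.1% of Induced D6 members held an Lhx9 UMI, against 83.4% and 75%. Other gonadal factors went otherwise. Gata6 was at 448 CPM, against 169.9 and 180.03 CPM, Gata4 at 148 CPM, against 74.3 and 78.5 CPM, and Emx2 at 183 CPM, against 255 and 217 CPM. Sox9, a testis and chondrocyte factor, had 55.2 CPM, against 4.51 and 5.84 CPM.

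Several anterior Hox genes and the posterior gene Hoxd9 differed in direction. The anterior Hox genes Hoxa5 (54.8 against 9.02 and 3.46 CPM), Hoxc4 (127 against 21.4 and 22.7 CPM) and Hoxc5 (129.995 against 23.7 and 23.8 CPM) were higher in Induced D6 members, among 4 of 6 at the floor past 2-fold in each comparison. Posterior Hoxd9 was lower, at 82.5 against 274 and 189 CPM. Hoxd10 had 2 UMIs in all Induced D6 members, 0.199 CPM, against 39.5 and 43.3 CPM, though it lay under the floor. Against E11.5XX members that was 198-fold lower (interval 54.3 to 1643).

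BMP target genes were higher in the culture. Of 7 genes of the BMP and TGF-beta response list at the floor, 4 passed 2-fold against E11.5XX and 5 against E12.5XX members, and 0 were lower. Id2 had 1558 CPM, against 259 and 277 CPM, Id3 1650 CPM, against 366 and 281 CPM, and Id1 729 CPM, against 144 and 211 CPM. Ligand Tgfb2 had 158 CPM, against 29.9 and 16.2 CPM, and Bmp2 8.17 CPM, against 45.5 and 63.2 CPM. Bmp2 had a log2 ratio of -2.28 to E12.5XX members with barcodes thinned before the rule, in place of -2.95. The 0-Upk3b barcodes of Induced D6 had 1066 CPM of Id2 and 1059 CPM of Id3. High levels of both were thus measured in both classes of the culture.

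Several genes among the 10 with the largest ratios were high in the whole Induced D6 library. Il11ra1, an interleukin receptor chain, had 175 CPM in members and 204 CPM in 0-Upk3b barcodes, against 5.22 and 3.25 CPM in gonad members. Ftl1-ps1, a ferritin pseudogene that shares reads with its parent, had 2035 CPM against 81.6 and 97.8 CPM and is uncertain. Angptl7 (69.3 against 4.65 and 1.73 CPM), Dkk1 (114 against 10.2 and 5.84 CPM) and Arhgap22 (141 against 13.1 and 11.47 CPM) were higher in members than in 0-Upk3b barcodes as well. Collagen VI gene Col6a1 had 71.0 CPM, against 7.19 and 5.63 CPM, while 0-Upk3b barcodes had 133 CPM. The imprinted Dlk1 had 1314 CPM, against 267 CPM in members of each gonad, and Meg3 2212 CPM, against 476 and 536 CPM. With barcodes thinned before the rule, Angptl7 had log2 ratios of 5.62 and 4.22, in place of 3.90 and 5.32. Dkk1 had 5.09 in place of 3.49 against E11.5XX. These values after thinning rest on only 72 E11.5XX and 52 E12.5XX members, in place of 381 and 284.

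Genes lowest in Induced D6 members led with Serpina3a, a serine protease inhibitor with close paralogs. It had 0 UMIs in members, and with 3 UMIs as the floor it was at least 207-fold lower than in E11.5XX members (61.8 CPM) and at least 346-fold lower than in E12.5XX members (103 CPM). Xist, the RNA that coats the inactive X chromosome, had 60.4 CPM, against 813 and 1064 CPM. After thinning 4.53% of Induced D6 members held an Xist UMI, against 86.6% and 92.6% of gonad members, and 5.56% of 0-Upk3b Induced D6 barcodes held one. Low Xist was thus measured in both classes of the culture, whose library name gives no sex. Hpgd, which degrades prostaglandins, had 8.47 CPM, against 66.7 and 107 CPM. The cyclin Ccnd1 had 7.98 CPM, against 55.3 and 58.2 CPM. Hist1h2ap (68.9 against 766 and 582 CPM) and Tpm3-rs7 belong to multicopy families and are uncertain. With clusters 0, 10 and 11 left out of Induced D6 only, Hist1h2ap had log2 ratios of -5.64 and -5.25, in place of -3.47 and -3.08. Xist then had -4.38 and -4.77, in place of -3.75 and -4.14. For Serpina3a the bounds after thinning before the rule were log2 ratios of -6.15 and -7.58, in place of -7.69 and -8.43, from fewer UMIs.

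Some cell cycle genes were lower than in the gonad. Of 14 S phase genes 3 were at least 2-fold lower than in E11.5XX and 1 than in E12.5XX members, and of 15 G2/M genes 3 and 4, with 0 higher. Top2a had 159 CPM, against 317 and 321 CPM. Within Induced D6, Top2a was at 92.9 CPM in 0-Upk3b barcodes. Vim had 194 CPM in Induced D6 members, against 541 and 369 CPM in E11.5XX and E12.5XX members. At least 2-fold higher were 2 of 13 glycolysis and hypoxia genes against E11.5XX and 6 of 14 against E12.5XX members, among them Slc2a1, a glucose transporter (109.96 against 33.4 and 17.7 CPM) and Bnip3, a mitochondrial hypoxia gene (189 against 32.3 and 31.2 CPM).

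**Figure D5:**
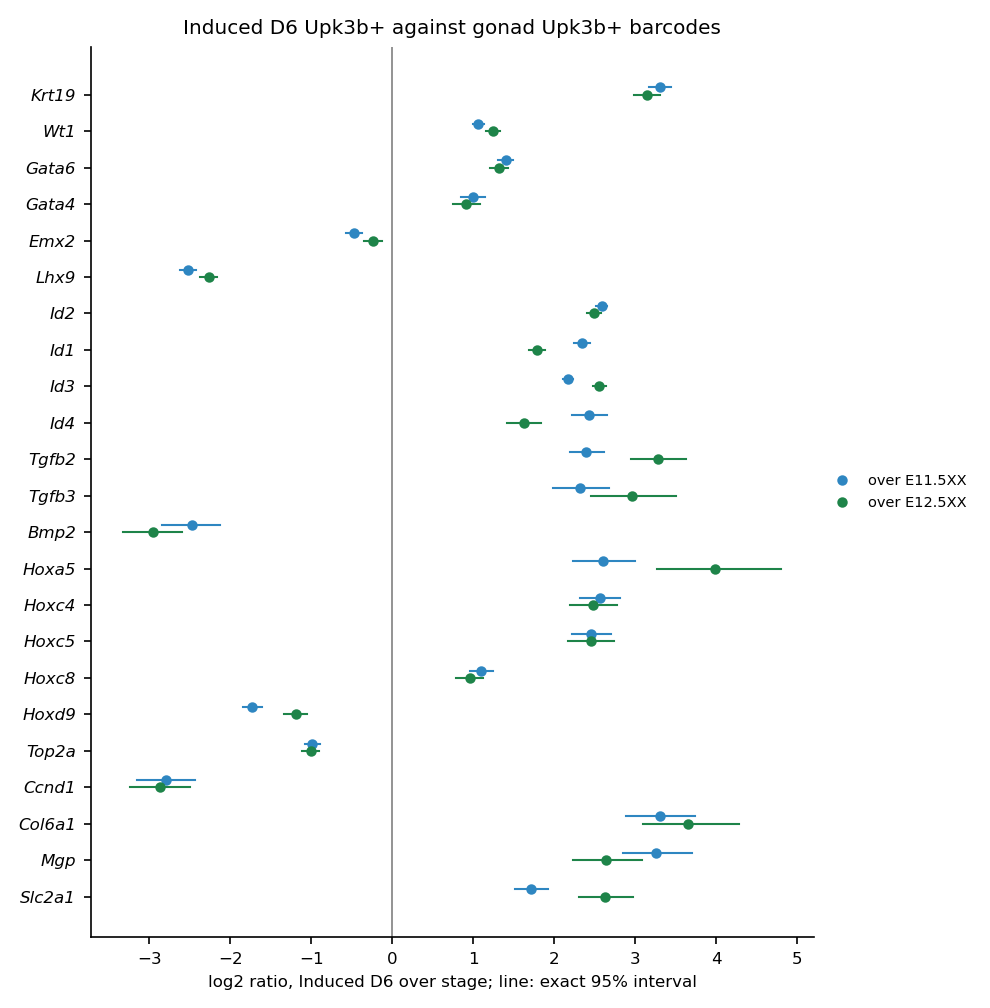
Log2 ratio of Induced D6 members over E11.5XX members (blue) and over E12.5XX members (green), with exact 95% intervals, for 23 genes. Krt19 (3.31 and 3.14) and the Id genes lay to the right of 0, and Lhx9 (-2.52 and -2.27) and Hoxd9 (-1.73 and -1.19) to the left.

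Markers of other cell types were summed in each class. Of 10 endothelial genes, the sum was 218 CPM in Induced D6 members, 165 CPM in its 0-Upk3b barcodes, and 124 and 110 CPM in E11.5XX and E12.5XX members, with Cdh5 at 0 in members and Ramp2 at 124 CPM. Erythroid genes summed to 1.30 CPM in Induced D6 members, against 75.6 and 39.6 CPM in gonad members, and 0 of 1218 Induced D6 members held a UMI of the embryonic globin Hbb-y, which allows a share of up to 0.246%. In gonad members thinned to 3000 UMIs, 15.8% and 10.9% held one. Germ cell genes summed to 17.3 CPM in Induced D6 members, against 25.2 and 46.3 CPM in gonad members. Leukocyte genes summed to 1.99 CPM and endoderm genes to 14.46 CPM. Muscle genes summed to 229 CPM, of which Myl7 was 149 CPM, and skin and amnion genes to 59.6 CPM, of which Krt15 was 31.3 CPM. The part of other cells' RNA in these results was not tested.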

How the data were processed

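The 6 libraries were made with the 10x Chromium 3′ v2 kit, per the labels' protocols, and hold 2766 to 7564 barcodes and 37606947 to 52146419 UMIs each. The authors deposited unnormalized UMI counts for every gene in every barcode. Per the submitters' processing notes, reads were counted with Cell Ranger 3.0.2 on mm10. How cells were called is not given in the sources used here. Both the members and the gene lists were chosen with earlier results of these data known.

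Kept barcodes had 500 or more genes and no more than 10% mitochondrial UMIs, and the Upk3b and Foxl2 rule was applied to them. UMI counts were summed over the barcodes of a class and given as CPM. Ratios of sums carry exact conditional binomial 95% intervals, levels exact Poisson intervals and shares Clopper-Pearson intervals. A sum of 0 was set to 3 counts, which gives a bound. PCR and capture make all intervals cover counting error only, and with 1 library per group there was no test. Genes at 50 CPM or more in either class were compared, with calls at 4-fold, and at 2-fold for the 41 gene lists. Named genes are the 10 largest ratios each way in each comparison that holds Induced D6 members (leaving out ribosomal, mitochondrial, globin and clone-type names), the extreme members of each list and the mesothelium and gonadal factor lists. A gene that this rule names is not reported here. Others named, those in the overlaps and the cluster comparisons among them, were chosen after their values were seen. Thinning drew 3000 UMIs per barcode (seed 0) and left out shallower barcodes, 3 of the Induced D6 members and 154 of its 0-Upk3b barcodes.

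Induced D6 was clustered in scanpy 1.11.5 without Upk3b and Foxl2, from 2000 variable genes, 30 principal components, 15 neighbours and Leiden resolution 1. Doublets were kept, and removing the top Scrublet scores, 0.8% per 1000 barcodes, was an alternative. The interval code was checked on simulated counts. Other alternatives were the Upk3b threshold, filters, scaling, CPM floor, fold, depth matching and the barcodes compared with. Sequences came from RefSeq and gene positions from GENCODE vM21.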

Additional observations from a re-analysis of the deposited data

Results flagged for a closer look

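2 genes named from the lists differed in direction between libraries. Dcn, a matrix proteoglycan, had a log2 ratio of -0.96 in Induced D6 (154 CPM in members and 301 CPM in 0-Upk3b barcodes), against 0.75 in E11.5XX and 2.17 in E12.5XX. Hk2, a hexokinase, had a log2 ratio of -0.54 in Induced D6 (41.4 CPM in members and 60.2 CPM in 0-Upk3b barcodes), against 0.60 in E11.5XX and 0.95 in E12.5XX. Neither difference between libraries was tested.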

How the results depend on the processing

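No paired analysis was possible because each group is 1 library and the values come from no test. The Induced D6 share was 23.7% with 1 or more Upk3b UMIs, 11.8% with 3 or more, 17.2% at 5% mitochondrial UMIs and 7.56% after thinning. Counts of genes at least 4-fold apart moved by more than 1.5 times mainly with the CPM floor and the fold, and are given here as higher and lower in members of the first-named group. With a floor of 20 CPM they were 18 and 76 within Induced D6, 106 and 41 for Induced D6 against E11.5XX members, 138 and 47 against E12.5XX members, 29 and 103 within E11.5XX, and 37 and 112 within E12.5XX. At 100 CPM they were 5 and 11, 32 and 11, 42 and 11, 6 and 21, and 7 and 20 in the same order. At 2-fold they were 64 and 117, 220 and 86, 354 and 97, 70 and 111, and 100 and 103. Without mitochondrial and ribosomal genes in the totals, lower genes were 32 against E11.5XX members, 33 against E12.5XX members and 64 within E12.5XX, and higher genes 21 within E11.5XX. Higher genes within Induced D6 were 13 with barcodes weighted equally, 1 with depth-matched barcodes, and 13 without clusters 0, 10 and 11. With those clusters left out of Induced D6 but no barcodes left out of the gonads, 72 genes were lower than in E11.5XX members. Against E12.5XX members 70 were lower. Against Wt1-positive 0-Upk3b barcodes 7 genes were higher within E11.5XX and 10 within E12.5XX. The cause of these moves was not tested, except that a floor or fold changes by construction how many genes can be called. Of 2356 recomputed log2 ratios, from 181 pairs of a gene and a comparison, 1932 stayed within the counting interval and 424 moved out of it. Of those past 2-fold as reported, 0 changed sign, and sign changes of smaller ratios were not counted. In 140 of the 2356 a ratio past 2-fold moved by over 1.5 times. The 2356 and the 1932 include values at floors of 20 and 100 CPM. A floor leaves each ratio unchanged, so those values could not move or change sign. The Wt1-positive comparison and the settings without clusters, and all alternatives within E11.5XX and E12.5XX, were chosen after seeing the data. Depth limits genes below 50 CPM, and the shallower Induced D6 barcodes limit how alike the classes chosen by 2 UMIs are.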
